A study of Mus musculus with 15 samples.

Results

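The genes described here are 10 members of the Notch signalling pathway: the receptors Notch1, Notch2 and Notch3, the ligands Jag1, Jag2, Dll1 and Dll4, and the target genes Hes1, Hey1 and Heyl. They were chosen by name, not by their values. Each of the 10 symbols occurred in 1 row of the RNA-seq table, out of 27697 symbols in all. The table covers preSertoli cells, the somatic cells that surround the germ cells in the cords of the fetal testis, purified by flow cytometry from C57BL/6J x CD-1 (F1) mouse embryos at embryonic day E15.5. The 3 libraries came from 3 pools of about 1000000 cells, which the labels call biological replicates and which drew on about 165 embryos together. Embryos of the DNase-seq samples of this series carried the Sox9-ECFP reporter and were labelled Sox9 heterozygous males, while the labels of the RNA-seq samples give the strain and the sorting without a genotype or sex. Single-end reads of 50 bases were made from poly-A RNA. Because RNA was measured in 1 group at 1 stage, levels can be described and no change between conditions can be tested.

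Notch proteins are receptors on the cell surface that are switched on by ligands of the Jagged and Delta-like families on a neighbouring cell. Ligand binding lets proteases release the intracellular domain of the receptor, which enters the nucleus, joins the DNA-binding protein Rbpj and a Mastermind co-activator, and turns on genes of the Hes and Hey families. Hes and Hey proteins are basic helix-loop-helix repressors, so Notch activity in a cell often ends in the silencing of other genes. In the testis the pathway has been studied in Sertoli cells, where Hes and Hey factors have been reported to repress Gdnf and Cyp26b1, and in the interstitium, where it acts in the progenitors of Leydig cells. Endothelial cells and the mural cells around vessels also use it, with Dll4 known from the former and Notch3 from the latter.

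The libraries held 47766422, 56007688 and 51725096 expected counts, which are the reads that the counting program assigned to each gene. Levels are given in CPM, which scales each count to a library total of 1000000, and libraries are called 1, 2 and 3 after their columns. CPM is not divided by transcript length, and no transcript lengths were used here, so an order of genes by CPM is an order of counts and not of transcript numbers. In RNA from a pool of cells, fewer cells of a type and less RNA per cell cannot be told apart. Genes that reached 1 CPM in each library are called expressed here. That held for 8 of the 10 Notch genes, all but Dll1 and Dll4, against 47.1% of all symbols. With a level of 0.5 CPM it held for 9 members against 50.5% of symbols, and with 5 CPM for 6 against 39.1%.

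Receptors took the most counts. Notch2 had 355, 416 and 379 CPM in libraries 1, 2 and 3 (mean 384 ± 30.3, SD, n = 3), which placed it at rank 376 of all symbols. Library 2 was the highest for this gene, and the counts behind the values, from 16979 to 23283, leave a counting error of 0.708% against a coefficient of variation of 7.91% between libraries. Notch1 had 56.9, 70.7 and 55.8 CPM (mean 61.1 ± 8.33, SD, n = 3), with library 2 again highest and libraries 1 and 3 close together. Notch3 had 22.2, 21.4 and 15.0 CPM (mean 19.5 ± 3.97, SD, n = 3), and here library 3 stood below both others. Notch2 therefore made up 81.8%, 81.8% and 84.3% of the counts of the 3 receptors (mean 82.6% ± 1.41), Notch1 13.1% ± 0.767 and Notch3 4.22% ± 0.890. The values of the 3 receptors did not overlap. Expected counts of Notch1 and Notch3 were not whole numbers, unlike those of the other 8 genes, as the counting program gives where it divides reads between genes, so these 2 values are less certain. Notch4, the remaining mammalian receptor, was among the listed genes that did not match, so it has no value here.

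Among the ligands the counts were almost all from Jag1. Jag1 had 38.9, 37.3 and 33.7 CPM (mean 36.6 ± 2.67, SD, n = 3), from 1742 to 2089 counts per library. Jag2, the second Jagged ligand, had 2.01, 1.96 and 1.70 CPM (mean 1.89 ± 0.166, SD, n = 3), so it passed 1 CPM in every library with a narrow margin. Jag1 took 92.4%, 91.6% and 92.9% of the counts of the 4 ligands, and Jag2 4.76% ± 0.0664. The Delta-like ligands were lower still. Dll1 had 0.733, 0.946 and 0.541 CPM (mean 0.740 ± 0.203, SD, n = 3), resting on 35, 53 and 28 counts. Dll4, the ligand best known from sprouting vessels, had 0.461, 0.50 and 0.329 CPM (mean 0.430 ± 0.0897, SD, n = 3), resting on 22, 28 and 17 counts. At this depth the libraries cannot be told apart for Dll4, since its exact 95% Poisson intervals, which cover counting error only, ran from 0.289 to 0.697, from 0.332 to 0.723 and from 0.191 to 0.526 CPM. Dll1 contributed 1.85% ± 0.427 of the ligand counts and Dll4 1.08% ± 0.161.

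The targets differed in level as well. Heyl had 31.4, 28.3 and 27.8 CPM (mean 29.1 ± 1.95, SD, n = 3) and took 74.5%, 73.0% and 77.6% of the counts of the 3 targets. Hes1, the target most often used to read Notch activity, had 8.12, 8.21 and 5.86 CPM (mean 7.40 ± 1.33, SD, n = 3). Libraries 1 and 2 were alike for Hes1 and library 3 was below both, with Poisson intervals that did not meet (5.22 to 6.56 CPM in library 3, 7.33 to 8.97 in library 1 and 7.48 to 9.0 in library 2). Hey1 had 2.62, 2.27 and 2.17 CPM (mean 2.35 ± 0.237, SD, n = 3), from 112 to 127 counts, and its spread of 10.1% was close to the counting error of 9.08%. The ratio of Heyl to Hes1 counts was 3.86, 3.44 and 4.74 in the 3 libraries. Because a ratio of the same genes does not depend on their lengths when libraries are compared, the mix of targets differed between libraries by this much.

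**Figure D1:**
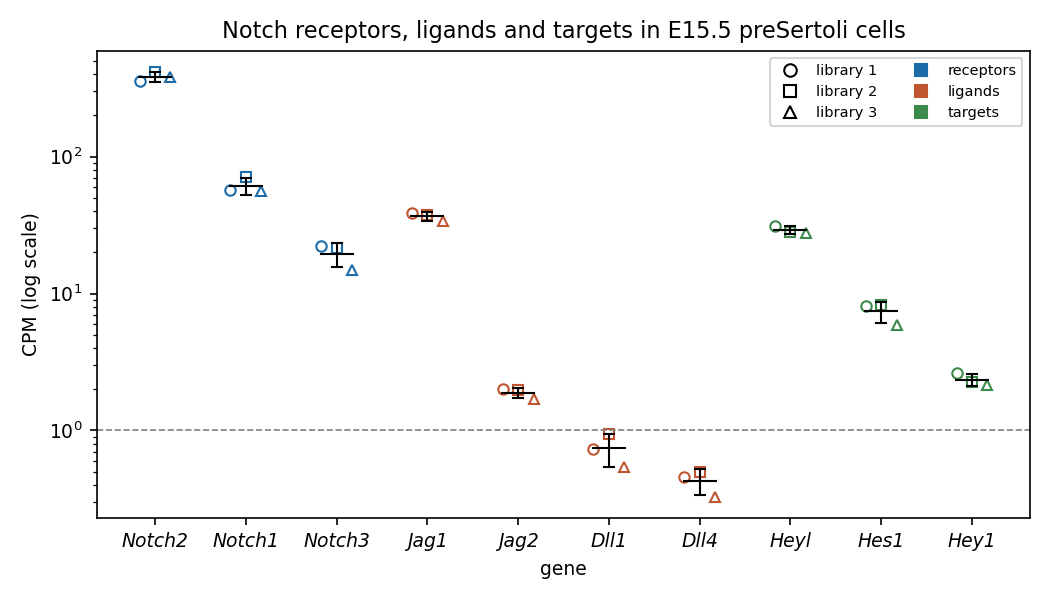
Level of each Notch gene in CPM (vertical axis, log scale), with open symbols for the 3 libraries, a bar for the mean and whiskers for 1 SD (n = 3). The dashed line is 1 CPM. Notch2 stands highest with 384 CPM, and Dll1 and Dll4 lie below the line in every library.

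By counts the order ran from Notch2 through Notch1, Jag1, Heyl, Notch3, Hes1, Hey1, Jag2 and Dll1 to Dll4. None of the 9 pairs of neighbours in this order overlapped in their 3 values. In ratio the closest were Jag1 (lowest 33.7 CPM) above Heyl (highest 31.4 CPM), Hey1 (lowest 2.17 CPM) above Jag2 (highest 2.01 CPM) and Dll1 (lowest 0.541 CPM) above Dll4 (highest 0.50 CPM). The order and the absence of overlap were the same with TMM scaling, a trimmed mean of gene ratios, and with the scaling of the deposited table. The TMM factors were 1.001, 1.0001 and 0.999 for libraries 1, 2 and 3, and the deposited scaling changed levels as little. Neither could therefore do much to the order. For these 3 pairs the Poisson interval of the higher gene's lowest library overlapped that of the lower gene's highest library. Among expressed genes Notch2 lay at percentile 97.1 of counts, Notch1 at 67.8, Jag1 at 53.3 and Heyl at 46.9. Notch3 (37.1), Hes1 (20.5), Hey1 (7.36) and Jag2 (5.04) lay below the middle of the expressed genes.

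The promoter windows of 7 of the 10 members were in the RefSeq table used here (build GRCm38.p6), and those of the 3 targets were not. The windows and motifs were chosen after the values were seen. Windows of 250 bases before the annotated start site are shown for the pair of receptors with the most counts and for the ligands with the most and the fewest counts, so that genes at both ends of the range can be compared. Capitals mark CACGCG, a letter string that Hes and Hey proteins are known to bind, and GGGCGG, the GC box, on either strand (CGCGTG and CCGCCC), and no capital run belongs to both. The windows are chr3:98013288-98013537 on the plus strand for Notch2, chr2:26503823-26504072 on the minus strand for Notch1, chr2:137116521-137116770 on the minus strand for Jag1 and chr2:119325534-119325783 on the plus strand for Dll4, each written 5′ to 3′.
Notch2: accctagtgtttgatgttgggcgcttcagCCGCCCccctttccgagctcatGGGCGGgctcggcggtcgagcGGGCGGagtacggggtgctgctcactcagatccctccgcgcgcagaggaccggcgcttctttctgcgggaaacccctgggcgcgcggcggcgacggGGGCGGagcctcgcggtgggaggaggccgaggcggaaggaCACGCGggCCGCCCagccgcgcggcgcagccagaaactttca
Notch1: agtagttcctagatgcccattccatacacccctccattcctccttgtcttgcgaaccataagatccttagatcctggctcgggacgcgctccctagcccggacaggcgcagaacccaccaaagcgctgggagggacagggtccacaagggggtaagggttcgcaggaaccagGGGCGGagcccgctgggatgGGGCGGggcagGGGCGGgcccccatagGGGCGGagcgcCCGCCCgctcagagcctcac
Jag1: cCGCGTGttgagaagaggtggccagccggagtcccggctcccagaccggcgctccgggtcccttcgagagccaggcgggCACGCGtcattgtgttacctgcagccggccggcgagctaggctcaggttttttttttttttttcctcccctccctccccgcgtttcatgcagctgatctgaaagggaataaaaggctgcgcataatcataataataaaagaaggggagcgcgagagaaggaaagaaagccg
Dll4: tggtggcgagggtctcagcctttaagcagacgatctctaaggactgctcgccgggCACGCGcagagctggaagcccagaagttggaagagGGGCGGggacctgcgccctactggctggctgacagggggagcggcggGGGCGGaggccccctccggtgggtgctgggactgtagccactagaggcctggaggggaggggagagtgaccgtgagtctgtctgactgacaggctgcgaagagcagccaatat

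The Notch2 window held 34 CG dinucleotides and 5 GC boxes, and the Notch1 window 16 CG dinucleotides and 5 GC boxes. The Jag1 window held 20 CG dinucleotides without a GC box, and the Dll4 window 14 with 2 GC boxes. CACGCG lay 42 bases before the start site in Notch2, 195 bases before it in Dll4, and 249 and 171 bases before it in Jag1. Over the 7 matched genes, which have 8 windows because Dll1 has a pair of start sites, CG dinucleotides ran from 13 to 54 against a median of 6 over 32851 windows. CACGCG occurred in 4 of the 7 genes, or 4 of the 8 windows, and in 7.62% of all windows. Among the 10362 windows with at least 13 CG dinucleotides it occurred in 20.5%. GGGCGG occurred in 5 of the 7 genes, or 5 of the 8 windows, in 32.7% of all windows and in 73.5% of those rich in CG. TGGGAA, the core of the Rbpj motif, occurred in 0 of the 8 windows, in 21.6% of all windows and in 16.3% of those rich in CG. CACGTG occurred in 0 of the 8 windows, in 6.02% of all windows and in 9.74% of those rich in CG. A match of letters is a description of the window, not a bound site, and the absence of one says only that these letters are not in the 250 bases. The number of CG dinucleotides did not follow the counts, since the richest window, with 54, was that of Jag2 (1.89 CPM).

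The members differed in how well the 3 libraries matched. The coefficient of variation was 6.68% for Heyl, 7.28% for Jag1 and 7.91% for Notch2, near the median of 6.75% over expressed genes. Notch3 (20.3%), Hes1 (18.0%) and Notch1 (13.6%) varied more. Relative to counting error the spread was 11.2 times for Notch2, the gene with the most counts, 7.69 for Notch1, 6.46 for Notch3 and 3.53 for Hes1. Among genes within 2-fold of the same CPM, Notch3 lay at percentile 96.1 of variation, Notch1 at 95.5, Hes1 at 85.9, Dll1 at 74.6 and Notch2 at 74.2. Heyl (54.7) and Jag1 (64.1) lay near the middle, and Jag2 (25.6), Hey1 (34.9) and Dll4 (44.2) below it. The large percentage for Dll1 (27.4%) comes with a counting error of 16.1%.

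**Figure D2:**
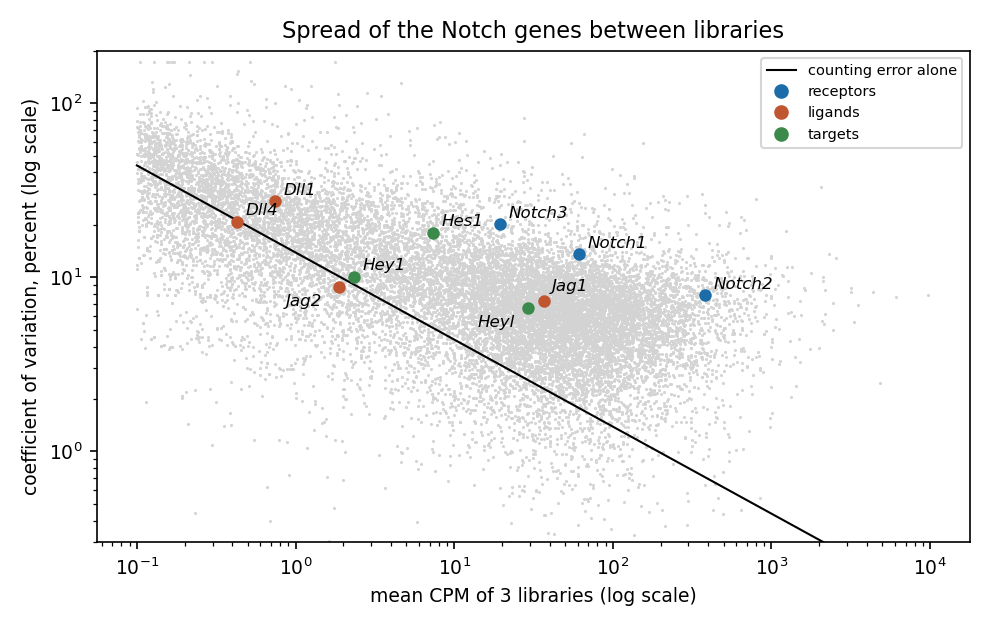
Coefficient of variation between the 3 libraries (vertical axis, log scale) against mean CPM (horizontal axis, log scale) for all symbols of at least 0.1 CPM (grey) and the 10 Notch genes (coloured by role). The black line is the counting error alone. Dll4, Jag2 and Hey1 lie near the line, while Notch2, Notch1, Notch3 and Hes1 lie above it, at 7.91%, 13.6%, 20.3% and 18.0%.

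Library 3 gave the lowest value for 9 of the 10 Notch genes, the exception being Notch2, against 37.5% of expressed genes. With TMM scaling and with the scaling of the deposited table it was also lowest for 9 of 10, against 37.0% of expressed genes in both cases. Those scalings changed the values very little. The count of members lowest in library 3 was made after the values were seen. Dll1 and Dll4 are among the 9 but not among expressed genes. The Poisson interval of library 3 lay below those of both other libraries only for Jag1, Notch3 and Hes1. Of 82 further Notch pathway genes that were expressed, described below, 44 were lowest in library 3. Relative to the mean of libraries 1 and 2, library 3 stood at 0.645 for Dll1, 0.684 for Dll4, 0.687 for Notch3 and 0.717 for Hes1, and at 0.931 for Heyl, 0.887 for Hey1, 0.884 for Jag1, 0.874 for Notch1 and 0.856 for Jag2. The median over the 10 genes was -0.21 on the log2 scale and that over expressed genes -0.01. Only 3.15% of expressed genes had a lower ratio than Notch3 and 4.07% a lower ratio than Hes1, whereas Notch2 and Heyl lay well inside the range, at 47.1% and 29.1%. Of other Notch-responsive genes, Hes5 (8.23, 9.57 and 5.66 CPM) and Nrarp (21.7, 22.9 and 16.1 CPM), which encodes a feedback inhibitor of the Notch complex, were lowest in library 3 too. Over their whole lists this held for 4 of 9 further Hes and Hey relatives and 7 of 11 feedback and target genes.

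Nearly all listed markers of fetal Leydig, interstitial progenitor and mural cells were lowest in the same library. All 6 fetal Leydig markers were expressed and lowest in library 3, where they summed to 1228 CPM against 1695 and 2014 in libraries 1 and 2, a ratio of 0.662. Among them the steroid enzyme gene Cyp17a1 had 677, 820 and 531 CPM and Cyp11a1 388, 466 and 289 CPM. All 8 markers of interstitial progenitors were expressed and lowest in library 3, with sums of 274, 303 and 233 CPM. They were led by the hedgehog receptor Ptch1 (167 ± 9.76 CPM) and Pdgfra (28.7 ± 7.42 CPM), and the defining gene Nr2f2 had 16.8 ± 3.76 CPM. Of the 9 mural markers measured, 7 were expressed and 8 were lowest in library 3, with sums of 113, 118 and 89.0 CPM. Cspg4 (44.8 ± 9.66 CPM) and Pdgfrb (18.1 ± 2.45 CPM) led, and the defining genes Myh11 and Rgs5 had 13.6, 13.2 and 8.78 CPM and 10.5, 6.05 and 6.13 CPM. The ratio of library 3 to the mean of the others was 0.769 for the mural sum and 0.807 for that of the interstitial progenitors.

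Endothelial markers, of which 7 of 12 were expressed, summed to 53.4, 55.7 and 50.2 CPM, a ratio of 0.920 for library 3, led by Pecam1 (15.6 ± 0.997 CPM) and Robo4 (12.9 ± 0.482 CPM). Their defining genes Cdh5 and Tek had 7.77 ± 0.743 and 0.746 ± 0.245 CPM. Germ cell markers (7 of 9 expressed) summed to 69.2, 50.6 and 58.2 CPM, with Tdrd9 at 13.9 ± 0.695, Ddx4 at 12.3 ± 2.63 and Dazl at 7.72 ± 2.70 CPM, and library 2 was the lowest. Blood and macrophage markers (2 of 6 expressed) summed to 23.4, 35.2 and 23.4 CPM, a ratio of 0.80 for library 3 in which library 1 was as low. Most of that sum came from the globin gene Hbb-b1 (23.1 ± 6.04 CPM), with Csf1r at 1.85 ± 0.390 and Ptprc at 0.202 ± 0.0621 CPM. All 12 Sertoli markers were expressed. They summed to 8623, 9244 and 8217 CPM, a ratio of 0.920 for library 3, as for the endothelial sum. Clu (3172 ± 259 CPM) and Amh (2048 ± 678 CPM) led, and Amh itself was lowest in library 3, at 1319 CPM against 2167 and 2660. The low Sertoli sum in library 3 rests on Amh, since the other Sertoli markers together were highest there. Clu, for example, had 2980, 3069 and 3467 CPM. Being expressed does not set Sertoli markers apart, since all fetal Leydig and interstitial progenitor markers were expressed too. Library 3 was lowest for 4 of 12 Sertoli, 7 of 12 endothelial, 4 of 6 blood and macrophage and 1 of 9 germ cell markers. No defining marker of another cell type was at 0. The part of interstitial, Leydig and mural cells in the values of Notch3, Hes1, Dll1 and Dll4 was not tested.

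**Figure D3:**
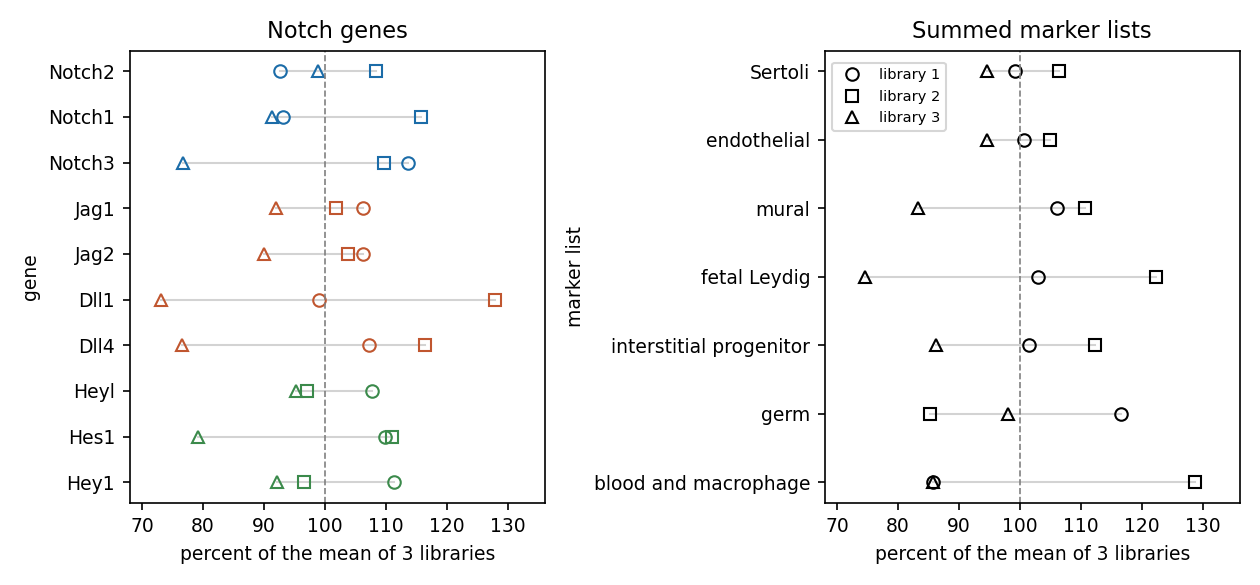
Value in each library as a percent of the mean of the 3 libraries (horizontal axis), for the 10 Notch genes (left, coloured by role) and for the summed CPM of each marker list (right). Triangles mark library 3, which is lowest for 9 of the 10 genes and, among the lists, farthest down for fetal Leydig markers, with 1228 CPM against 1695 and 2014.

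Beyond the 10 members, 100 further pathway genes were listed and 98 measured, of which 82 were expressed, against 47.1% of all symbols. Most of the core machinery was expressed. In the nuclear complex 9 of 10 genes were expressed, led by the acetyltransferase Ep300 (197 ± 5.80 CPM), the DNA-binding factor Rbpj (131 ± 5.64 CPM) and Snw1 (115 ± 8.45 CPM). The exception was Rbpjl, the pancreatic relative of Rbpj, at 0.0536 CPM or less in each library. All 3 Mastermind genes passed, with Maml1 at 68.1 ± 4.11, Maml3 at 40.8 ± 3.53 and Maml2 at 6.23 ± 0.301 CPM, which were named after their values were seen. All 16 corepressors were expressed, among them the Groucho relative Aes (358 ± 27.9 CPM) and Ncor1 (284 ± 8.58 CPM).

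Genes on the protease and sugar transferase lists were expressed almost without gaps. All 9 measured protease genes passed, led by Adam10, which sheds the outer part of the receptor (236 ± 14.2 CPM), and the gamma-secretase subunits Ncstn (209.5 ± 3.96 CPM) and Aph1a (168 ± 3.27 CPM). Of the 10 sugar transferases 8 passed, led by Pofut2 (126 ± 8.25 CPM), Gxylt1 (108 ± 4.15 CPM) and Pofut1, which adds fucose to Notch (79.5 ± 2.40 CPM). The Fringe genes, which shift the receptor's choice between Delta-like and Jagged ligands, were uneven in counts and are named after their values were seen: Lfng had 50.7, 50.1 and 45.3 CPM, Rfng 21.0, 21.6 and 24.8 CPM and Mfng 0.314, 0.429 and 0.406 CPM. All 20 genes of ligand endocytosis and receptor traffic were expressed, led by the ubiquitin ligases Nedd4 (1985 ± 77.5 CPM) and Mib1, which acts on the ligands (145 ± 5.04 CPM), and the endocytic adaptor Epn1 (130.5 ± 10.3 CPM). Dtx1, a Deltex gene just under these and also picked after its values were seen, had 129.7 ± 19.1 CPM.

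Ligand-like genes and further Hes and Hey genes had lower shares of expressed genes than the other lists, with 6 of 11 and 5 of 9 near the 47.1% of all symbols. Of 11 ligand-like genes 6 were expressed, led by the non-canonical ligand Dlk1 (28.6 ± 10.4 CPM), the matrix gene Mfap2 (13.1 ± 1.37 CPM) and the contactin Cntn1 (5.27 ± 0.924 CPM), with Nov under 0.1 CPM in every library. Dlk1 had 27.7, 39.4 and 18.8 CPM. Only 0.875% of expressed genes had a lower ratio of library 3 to the mean of the others. The Leydig, interstitial progenitor, mural, endothelial and Sertoli sums showed the same order of libraries, the Sertoli sum only through Amh. Their ratios for library 3 differed, from 0.662 for Leydig to 0.920 for endothelial and Sertoli markers. The part of any of these cells in the Dlk1 values was not tested. Of 9 further Hes and Hey relatives 5 were expressed, led by Bhlhe40 (53.5 ± 3.47 CPM), Hes6 (13.6 ± 1.38 CPM) and Hes5 (7.82 ± 1.98 CPM). Hes2, Hes3 and Helt were under 0.1 CPM in every library. Of 11 feedback and target genes from other tissues 7 were expressed, led by Sox9 (259 ± 36.9 CPM), Nfkb2 (25.0 ± 2.03 CPM) and Nrarp (20.2 ± 3.61 CPM). Sox9 is a Sertoli marker in its own right and appears in both lists.

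Both genes reported as repressed by Hes and Hey factors in Sertoli cells were among the higher genes. Gdnf, the growth factor that maintains spermatogonial stem cells, had 153, 146 and 154 CPM (mean 151 ± 4.07, SD, n = 3). Cyp26b1, which degrades retinoic acid, had 277, 305 and 272 CPM (mean 285 ± 17.5, SD, n = 3). Library 3, the lowest for Hes1, was the highest for Gdnf and the lowest for Cyp26b1, by margins within the spread of the other libraries.

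**Figure D4:**
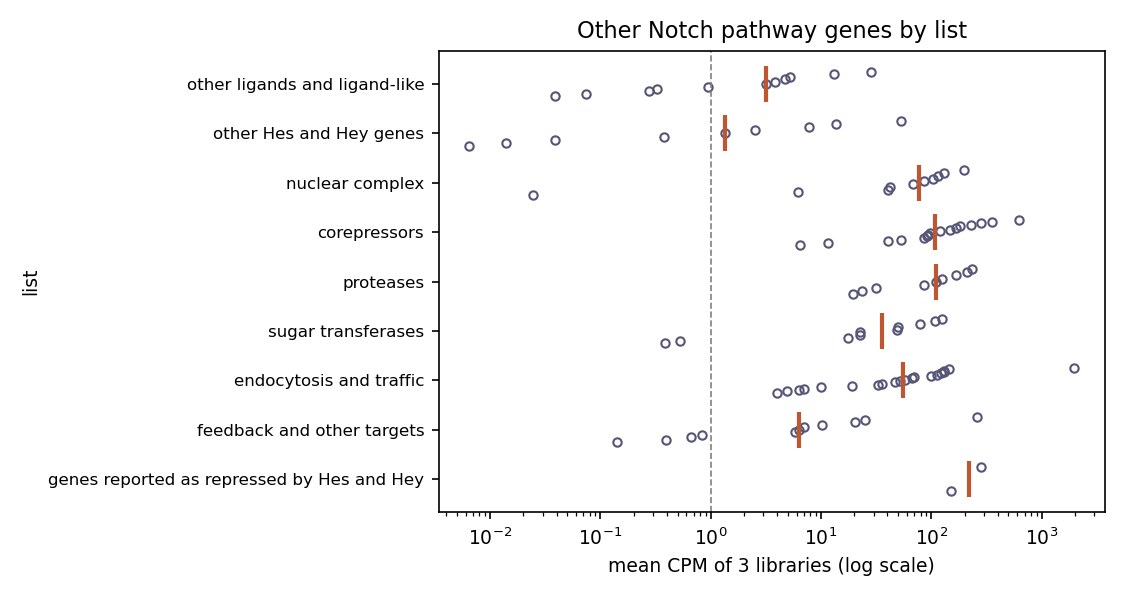
Mean CPM of the 3 libraries (horizontal axis, log scale) for 98 other Notch pathway genes, 1 open circle per gene in rows by list, with the list median as a vertical bar and 1 CPM as a dashed line. The proteases and corepressors lie wholly above the line, while 5 of 11 ligand-like genes and 4 of 9 further Hes and Hey relatives are not expressed.

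Neighbouring genes could bear on these counts where they overlap a member, since the library kit is not stated to keep the strand. Any such effect was not tested. In the annotation, 6 of the 10 members overlap another gene, and the share over all genes was not computed. Gm14207, a long non-coding RNA that overlaps Dll4, was the only overlapping gene with a row of its own, at 0.0536 CPM or less in each library. Jag1, Dll1, Hes1 and Heyl overlap no annotated gene.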

How the data were processed

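RNA was measured in 3 libraries of 1 group. Per the submitters' processing notes, the tools were CASAVA 1.8.2, Bowtie 0.12.7 and RSEM 1.2.0, with build mm9. The table the authors deposited holds, per its column headers, other values than counts: square roots, here of scaled expected counts. From the values, the upper quartile of the squares, over rows above 0 in any library, is 1 in each library. For the counts, each value was squared and divided by the smallest step of its library, a hundredth of an expected count. All values (100%) came out whole within 0.05 of a step. Counts were then divided by the library total. Where a symbol had several rows (730 of 28427 rows), the row with the highest mean was kept. No test across samples was possible with 1 group, so values are means ± SD, and exact 95% Poisson intervals cover counting error only. Alternatives were TMM scaling computed by its formula, the scaling of the authors, summing the distinct rows of a symbol, thresholds of 0.5 and 5 CPM, a mean of 1 CPM and leaving out each library. The recovery was tested on data simulated from the recovered counts, with a value of the smallest step placed in each library. That test could not show whether the step is right for the deposited values. The members, lists and alternatives were chosen with earlier results of these data known. Named genes were the 3 highest of each pathway list, those under 0.1 CPM in every library, and the 2 highest and the defining markers of each marker list. Of the genes this rule names, 2 are not reported here. Of the listed genes, 5 did not match and 3 matched by an older symbol. DNase-seq and H3K27ac tables were not used, since gene positions in mm9 were not used here. Python 3.11.15, numpy 2.4.6, pandas 2.3.3, scipy 1.17.1 and matplotlib 3.10.9 were used.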

Additional observations from a re-analysis of the deposited data

How the results depend on the processing

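All 79 values recomputed under other settings (TMM scaling, the scaling of the authors, summed rows of a symbol, thresholds of 0.5 and 5 CPM, a mean of 1 CPM, and leaving out each library) moved by less than the spread between libraries or, for counts of genes, by less than 1.5 times. Leaving out 1 of 3 libraries cannot shift a mean by as much as 1 SD. Each member has 1 row, so summing rows cannot change its level. The outcomes of those settings for levels and shares were fixed in advance and say nothing of robustness. TMM scaling and the scaling of the authors hardly changed any level, so the same outcome under them says little as well. With 3 libraries the SD itself is uncertain, and the few counts of Dll1 and Dll4 limit what can be said of them. Levels per transcript length and signal at start sites in the DNase-seq and H3K27ac data were planned and not run. No paired analysis was possible because the RNA-seq libraries form a single group.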
